A study of Homo sapiens with 6 samples.

Results

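Untreated RT112 cells were compared with untreated RT4 and SW780 cells, gene by gene, to describe what sets RT112 apart from the other lines before any drug. The comparison used 3 of the 6 libraries, the DMSO libraries, and took for each assembled locus the log2(FPKM + 1) of RT112 minus the log2(FPKM + 1) of the mean of RT4 and SW780. FPKM is a count of fragments divided by transcript length and by the mapped fragments of the library. Of the 10066 loci in the deposited table, the 9045 with a mean of at least 1 FPKM over the 3 DMSO libraries were compared, and the other 1021 were left out. A locus was called higher (or lower) in RT112 where this difference and the separate differences from RT4 and from SW780 all reached 1, that is 2-fold, in the same direction. Because 1 is added before the log, the difference understates the change of genes with low FPKM.

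RT4, RT112 and SW780 are human bladder cancer cell lines that carry an FGFR3 fusion, which the labels give as FGFR3-TACC3 for RT4 and RT112 and as FGFR3-BAIBP2L1 for SW780. RT4 was grown in McCoy's 5A, RT112 in DMEM with added L-glutamine and non-essential amino acids, and SW780 in DMEM, so that line and medium cannot be told apart. Each line was kept for 2 days with DMSO or with quisinostat, an inhibitor of histone deacetylases, at 10 nM in RT112, 50 nM in RT4 and 25 nM in SW780. There was 1 library for each line and treatment, each line is 1 cell population, and none of the differences below has a replicate check or a p-value.

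The urothelium, from which these tumours arise, is a layered epithelium in which basal cells with KRT5 and TP63 give rise to luminal cells and finally to umbrella cells, whose surface is covered by uroplakin plaques. Luminal identity is held by transcription factors such as GATA3, FOXA1, PPARG and GRHL3, and bladder tumours with FGFR3 alterations usually keep much of this luminal programme. A fused or mutated FGFR3 signals through the MAPK pathway, whose own target genes include phosphatases of the DUSP family and ETS factors of the ETV family.

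The levels of the 3 DMSO libraries were close as a whole, with median FPKM over the table of 6.59 in RT112, 6.86 in RT4 and 6.93 in SW780. The table holds no read counts, so depth and counting error are unknown. At 0 FPKM stood 151 of the loci compared in RT112 DMSO, 105 in RT4 DMSO and 86 in SW780 DMSO. These zeros include genes that every dividing cell uses, such as POLD1, the catalytic subunit of DNA polymerase delta, which was listed at 0 in RT112 DMSO, at 7.10 FPKM in RT4 DMSO, at 4.65 in SW780 DMSO and at 5.53 in RT112 quisinostat. A value of 0 is therefore given only as listed, and no ratio of levels is drawn from it. It does enter the calls and the log2 differences as a 0, so that 65 of the lower loci rest on a listed 0 in RT112 DMSO and 46 of the higher loci on a listed 0 in RT4, SW780 or both.

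In RT112 DMSO, 293 loci (3.24% of those compared) were higher than in both other lines and 381 (4.21%) were lower. The median difference over all loci compared was -0.09. Of the loci called, 243 of the higher and 342 of the lower carried a gene name. RT112 and SW780 differed past 2-fold at 1551 loci (17.1%), RT112 and RT4 at 2280 (25.2%), and RT4 and SW780 at 2131 (23.6%), so that RT112 lay nearer to SW780 than to RT4. Just inside the limit on the higher side was RRAS2, a RAS-related GTPase, at 13.6 FPKM in RT112, 5.82 in RT4 and 6.26 in SW780. Just outside it was FAM200B, at 5.35, 2.17 and 1.45 FPKM in the same order. On the lower side FTH1, the ferritin heavy chain, was just inside with a weaker difference of -1.0005 and the aldo-keto reductase AKR1C2 was just outside, at 32.6, 66.0 and 68.0 FPKM.

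**Figure D1:**
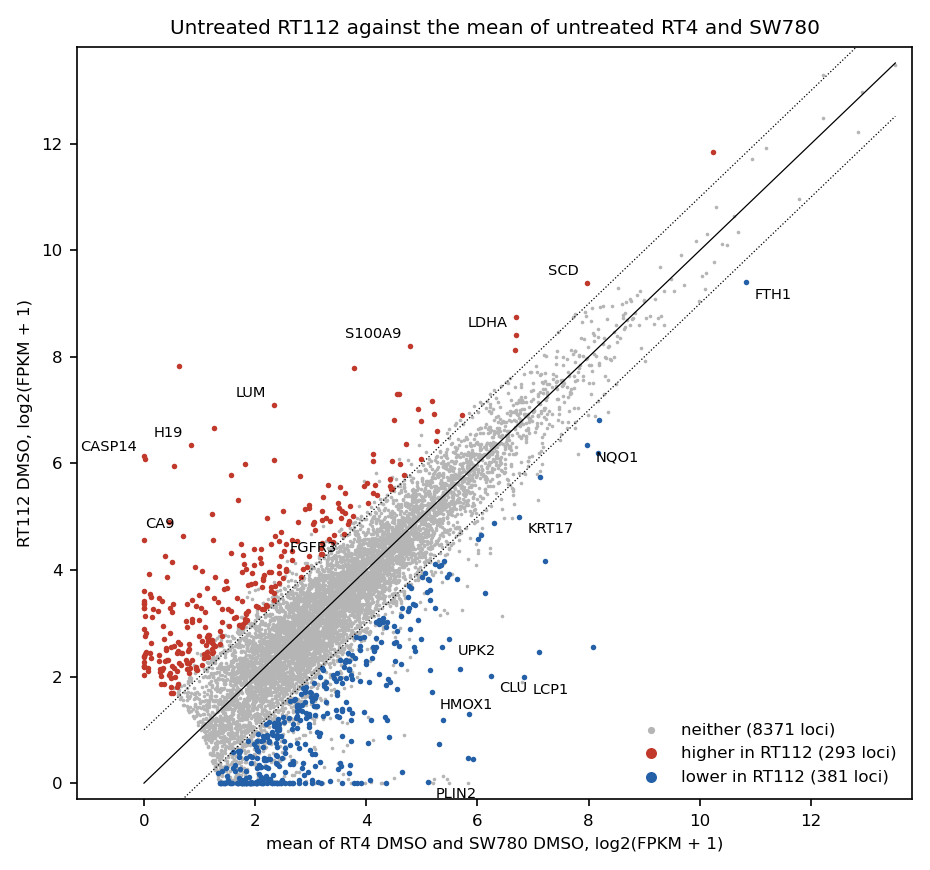
RT112 DMSO (vertical) against the mean of RT4 DMSO and SW780 DMSO (horizontal), both log2(FPKM + 1), with 1 point per locus compared and dotted lines at 2-fold. The 293 higher loci are red, the 381 lower loci are blue, and grey points past a dotted line are loci where only 1 of the other lines differed past 2-fold.

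The 15 named loci furthest above both other lines included CASP14, H19, LUM, FGFBP1 and CA9. CASP14, the caspase of the cornifying epidermis (chr19:15049384-15058293, plus strand, GRCh38), stood at 66.8 FPKM in RT112 DMSO against 0.0211 in RT4 DMSO and 0.0151 in SW780 DMSO. H19, the maternally expressed noncoding RNA (chr11:1995176-2001470, minus strand), stood at 79.97, 0.0148 and 1.60 FPKM in that order. IGF2, the growth factor gene imprinted together with H19 and singled out here after its values were seen, stood at 32.0, 0.0277 and 2.64 FPKM. Both genes of the imprinted pair were thus above 30 FPKM in RT112 and below 3 FPKM in the other lines.

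LUM, which encodes the matrix proteoglycan lumican (chr12:91102629-91111831, minus strand), was at 135 FPKM in RT112 DMSO, listed at 0 in RT4 DMSO and at 8.18 in SW780 DMSO. FGFBP1, a secreted carrier protein that releases FGFs from the matrix (chr4:15935569-15938740, minus strand), was at 62.7, 2.25 and 2.84 FPKM, a difference of 4.17. The collagenase gene MMP1 was at 54.3, 1.04 and 2.84 FPKM. SLPI, an inhibitor of leukocyte elastase that epithelia secrete, was at 222, 4.77 and 20.7 FPKM, which is 17.4 times the mean of the other lines. RT112 was alone at these levels, while SW780 stood above RT4 for each of these secreted or matrix proteins.

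CALB1, the calcium buffer calbindin, was at 60.5 FPKM in RT112 DMSO, listed at 0 in RT4 and at 0.917 in SW780. The carbonic anhydrase CA9 was at 23.8, 0.462 and 0.777 FPKM, and AK4, a mitochondrial adenylate kinase, at 18.3, 0.418 and 0.190 FPKM. TGM5, a transglutaminase of the cornified envelope, was at 9.70 FPKM in RT112, listed at 0 in RT4 and at 0.0065 in SW780. RFTN1 (9.39 FPKM), C16orf54 (9.35 FPKM) and the calcium-binding S100A8 (8.79 FPKM) were listed at 0 in both other lines. S100A4, another calcium-binding protein, was at 66.1, 3.18 and 4.88 FPKM. MTCO1P40, a processed pseudogene of the mitochondrial gene MT-CO1, was at 16.7, 0.379 and 0.447 FPKM, and because it resembles its parent its reads may be shared with it. Among the 50 higher loci without a gene name, MSTRG.24529 reached 228 FPKM in RT112, was listed at 0 in RT4 and stood at 1.10 in SW780.

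The 15 named loci furthest below both other lines included LCP1, CLU, HMOX1 and PLIN2. LCP1, which encodes the actin bundler L-plastin (chr13:46125920-46211871, minus strand), was at 2.97 FPKM in RT112 DMSO, 89.5 in RT4 DMSO and 138 in SW780 DMSO, so that the mean of the other lines was 38.3 times higher. The secreted chaperone CLU (clusterin) was at 3.05, 65.2 and 84.3 FPKM, a 24.5-fold gap. LXN, a carboxypeptidase inhibitor, was at 0.375, 93.7 and 24.9 FPKM, and LPXN, a focal adhesion adaptor, at 0.156, 18.9 and 29.3 FPKM. The actin-binding calponin CNN3 was at 3.43, 60.7 and 40.7 FPKM. These 5 genes were well expressed in both other lines and ranged from 0.156 to 3.43 FPKM in RT112.

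HMOX1, the heme oxygenase induced by oxidants (chr22:35380361-35394214, plus strand), was at 2.27 FPKM in RT112 DMSO against 39.0 and 31.2 in RT4 and SW780. PTGR1, a prostaglandin reductase, was listed at 0 against 24.5 and 14.4 FPKM, and PLIN2, the coat protein of lipid droplets, was at 0.0207 against 60.2 and 6.64 FPKM. RAB34, a GTPase, was at 0.0358 against 17.7 and 13.6 FPKM, the zinc finger gene ZNF22 at 0.137 against 13.6 and 10.1, and BCAM, a laminin-binding adhesion molecule, at 0.0369 against 7.58 and 6.70. SNX31, a sorting nexin of umbrella cells, was at 0.264 against 11.1 and 12.9 FPKM. PLBD1, a lysosomal phospholipase-like protein, was at 0.811 against 14.8 and 25.9 FPKM, the endocytic receptor gene LY75 at 0.0082 against 8.86 and 6.65, and the transcribed pseudogene AC011487.2 at 1.45 against 59.8 and 53.8. Each of these 15 genes was also lower in RT112 quisinostat than in both DMSO libraries of the other lines.

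**Figure D2:**
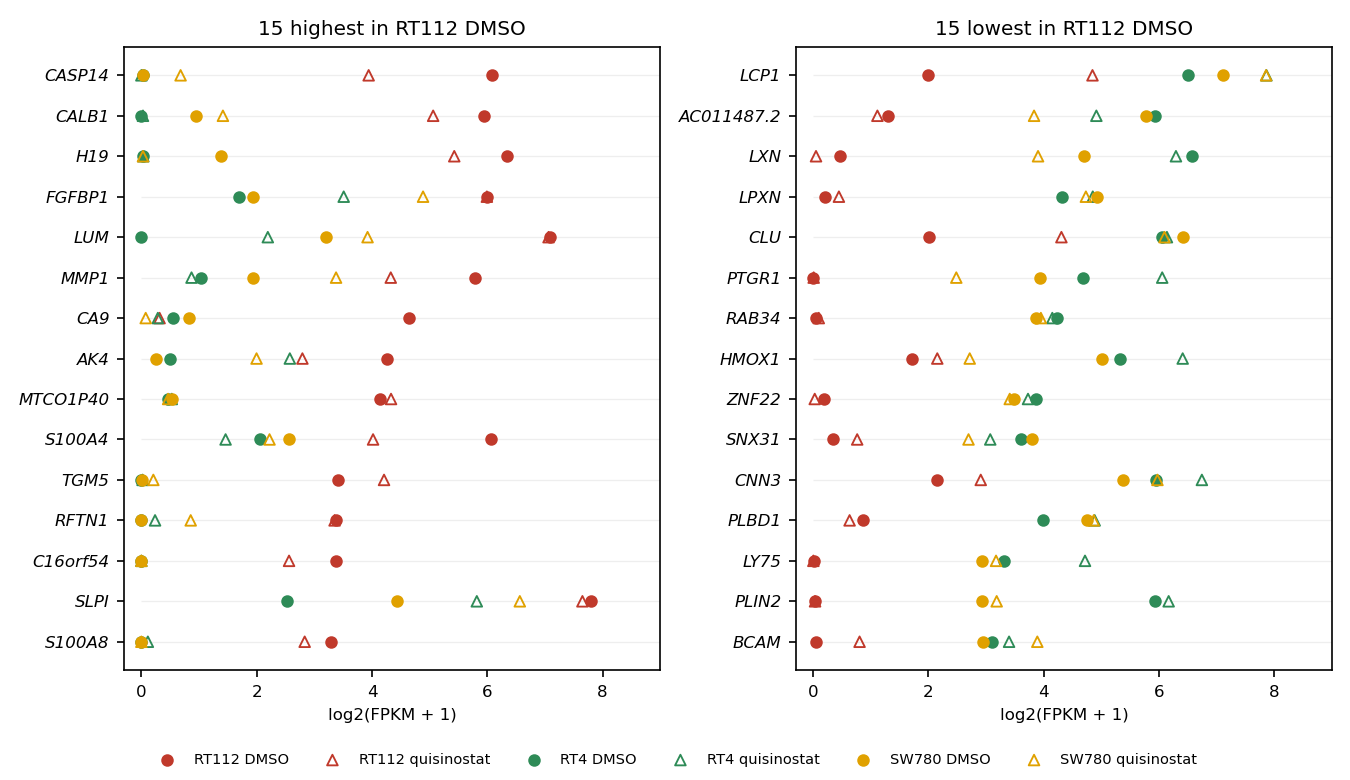
Levels, as log2(FPKM + 1), of the 15 named loci highest and the 15 lowest in RT112 DMSO by the weaker of its differences from RT4 and SW780, in all 6 libraries (filled circles DMSO, open triangles quisinostat). RT112 DMSO lies apart from both other DMSO libraries in every row, and the open RT112 triangle of CA9 lies with the other lines.

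Of the luminal transcription factor and umbrella cell genes, 6 were lower in RT112, where 4.21% of all loci were lower. None was higher, which in lists of this size is near the share of 3.24% over all loci. Of 15 luminal transcription factor genes compared, 2 were lower and none was higher, with a median difference of -0.45. GRHL3, a grainyhead factor that drives terminal urothelial differentiation, was at 1.35 FPKM in RT112, 26.4 in RT4 and 12.03 in SW780. The T-box factor gene TBX3 was at 4.93, 31.6 and 14.8 FPKM. The markers GATA3 (15.7, 41.8 and 18.5 FPKM), FOXA1 (16.5, 37.4 and 20.1 FPKM) and PPARG (86.5, 67.3 and 52.8 FPKM) stayed within 2-fold of at least 1 other line, so RT112 did express this set.

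Of 20 uroplakin and umbrella cell genes compared, 4 were lower and none was higher, with a median of -1.48, which was -1.97 against RT4 and -0.23 against SW780. The uroplakin genes went different ways. UPK2 was at 5.55 FPKM in RT112, 51.6 in RT4 and 36.2 in SW780, and UPK1A at 1.27, 12.8 and 19.2 FPKM. UPK1B, a further uroplakin gene, was at 166, 37.5 and 117 FPKM, a level in RT112 above both others but within 2-fold of SW780. UPK3A was listed at 0 in RT112 and stood at 7.90 FPKM in RT4 and 0.187 in SW780. SPINK1, a trypsin inhibitor, was also listed at 0 in RT112, against 25.5 and 1.07 FPKM (a call lost under quantile normalization), and SNX31, given above, was the remaining gene called. KRT20, the umbrella cell keratin, was low in all 3 lines at 1.11, 3.21 and 0.356 FPKM.

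Keratin loci of stratified epithelia included some that were higher in RT112. Of 6 basal and squamous keratin loci compared, 3 were higher and 1 was lower, where 3.24% and 4.21% of all loci were. Their median was 1.02, which was -0.046 with a minimum mean of 5 FPKM. KRT13, the keratin of intermediate cell layers, was at 431 FPKM in RT112, 3.26 in RT4 and 200 in SW780, a call lost under quantile normalization, and its partner KRT4 at 2.93 in RT112, 0.814 in SW780 and 0 as listed in RT4. The basal keratin KRT5 and its neighbour KRT6A share 1 assembled locus, whose value was 9.63, 0.0433 and 0.448 FPKM and cannot be divided between them. KRT17 alone was lower, at 31.1, 82.5 and 130 FPKM, and its GC-corrected difference did not pass the limit. None of the 6 simple keratin genes was called, which in a list of this size is near the shares over all loci. Their median was -0.67. KRT8 was at 143, 280 and 291 FPKM, and KRT18 at 251, 235 and 403 FPKM.

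Other basal and squamous markers were divided. Of 26 compared, 4 were higher and 1 was lower, where 3.24% and 4.21% of all loci were. Their median of -0.05 was near that of all loci. It was 0.33 against RT4 alone, 0.30 against SW780 alone and 0.19 after the GC correction, so its sign depended on the comparison. CD44, a hyaluronan receptor of basal cells, was at 81.6 FPKM in RT112, 24.0 in RT4 and 26.6 in SW780, 3.23 times the mean of the others. PKP1, a desmosomal plakophilin, was at 8.80 in RT112, 0.755 in RT4 and 0 as listed in SW780, and FGFBP1 and SLPI, described above, completed the higher set. CLCA2, a basal cell surface protein, was lower at 2.23, 6.71 and 7.27 FPKM. TP63, the basal master regulator, was at 42.0, 46.5 and 19.7 FPKM and was not called. DSG3 was below the minimum level, with 0.0067 FPKM in RT112, and KRT14 was not among the gene names compared.

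Epithelial markers were expressed in all 3 lines. EPCAM was at 58.3, 62.4 and 53.3 FPKM and CDH1, E-cadherin, at 56.7, 114 and 58.0 FPKM in RT112, RT4 and SW780. Of 23 epithelial adhesion genes, 2 were lower and none was higher, with a median of -0.59. Over all loci 4.21% were lower and 3.24% higher. The lower ones were the tight junction genes OCLN (2.27, 6.73 and 6.26 FPKM) and MARVELD3 (0.890, 3.03 and 3.24 FPKM). MARVELD3 lost the call with the GC correction, with quantile normalization and with a pseudocount of 5, and OCLN with a pseudocount of 5. Of 15 mesenchymal genes compared, 3 were higher and none lower, with a median of -0.04, which was 0.85 where the log2 values of the other lines were averaged and 1.58 against RT4 alone. They were S100A4, the gelatinase MMP2 (33.5, 4.49 and 11.99 FPKM) and the ectonucleotidase NT5E (19.6, 5.42 and 4.03 FPKM). CDH2, N-cadherin, was below the minimum level at 1.17, 0.0212 and 1.02 FPKM, and VIM, ZEB1 and TWIST1 were not among the gene names compared.

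Markers of other cell types were nearly absent from the names in the table. Of 30 leukocyte, endothelial, fibroblast and muscle markers, 3 were found, all of them fibroblast matrix genes, and 2 passed the minimum level. Besides LUM, COL3A1 was at 0.0896 FPKM in RT112, 1.13 in RT4 and 2.74 in SW780, and COL1A1 was at 0.173, 0.0342 and 0.0558 FPKM. The summed level of the 3 was 135 FPKM in RT112, 1.16 in RT4 and 10.97 in SW780, nearly all of it LUM, while both collagen genes were below 0.2 FPKM in RT112. In a bulk library, few cells that make much of an RNA and many cells that make little of it cannot be told apart.

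The fused receptor was called neither way. FGFR3 was at 17.2 FPKM in RT112, 19.96 in RT4 and 2.49 in SW780, so that RT112 and RT4, the lines with the FGFR3-TACC3 fusion, were within 2-fold of each other and SW780 was below both. TACC3, the fusion partner and a spindle protein in its own right, was at 84.5, 65.9 and 36.4 FPKM, and BAIAP2L1 was at 9.90, 10.1 and 11.1 FPKM at a locus that also carries the pseudogene name RPS3AP26. FPKM of a whole gene cannot separate a fusion transcript from the unfused one. Of 9 genes for FGF receptors, ligands and fusion partners, FGFBP1 was higher and none was lower, with a median of 0.57. Among all loci compared, 3.24% were higher and 4.21% lower.

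Several feedback and target genes of the MAPK pathway were higher in RT112. Of 19 compared, 5 were higher (against 3.24% of all loci) and none was lower, and the median difference was 0.37. At any size 10 were above both other lines and 1 below both, CCND1 (29.2 FPKM in RT112, 67.8 in RT4 and 56.9 in SW780). Of all 9045 loci compared, 2656 were above both lines and 3093 below both. The ETS factor ETV4 was at 25.1 FPKM in RT112, 5.68 in RT4 and 3.37 in SW780, and ETV5 at 9.90, 3.999 and 4.14 FPKM. The ERK phosphatase DUSP6 was at 29.8, 10.6 and 5.70 FPKM, and DUSP5, its nuclear relative, at 37.5, 14.6 and 5.92 FPKM. MYC was at 51.1, 20.4 and 20.9 FPKM. All 5 kept the call after the GC correction, and ETV5 lost it with a pseudocount of 5. With quisinostat only ETV4 stayed past 2-fold above both untreated lines. Among 9 genes for ERBB receptors and ligands, the EGFR ligand HBEGF was higher (11.7, 1.14 and 2.51 FPKM), none was lower, and the median was 0.02.

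Of 39 tumour suppressor genes and oncogenes of bladder cancer compared, MYC was higher and 2 were lower, shares near those over all loci (3.24% and 4.21%), with a median of -0.19. CDKN1A, which encodes the CDK inhibitor p21, was at 14.1 FPKM in RT112, 41.1 in RT4 and 46.3 in SW780, and the repair helicase ERCC2 at 2.33, 6.35 and 6.57. Of 71 cell cycle genes, the CDK inhibitor CDKN2D was higher (5.47, 1.31 and 1.35 FPKM), CDKN1A was lower, and the median was 0.19.

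Of 36 hypoxia and glycolysis genes compared, 5 were higher in RT112 (against 3.24% of all loci), 1 was lower and 30 were called neither way, with a median of 0.23. Their summed level was 4710 FPKM in RT112, 4893 in RT4 and 4381 in SW780. CA9 (chr9:35673856-35681159, plus strand), a classic target of hypoxia-inducible factor, was given above. LDHA, lactate dehydrogenase A, was at 339 FPKM in RT112, 96.5 in RT4 and 109 in SW780, 3.29 times the mean of the others. NDRG1, a stress-responsive gene, was at 22.5, 5.94 and 2.78 FPKM, the mitophagy receptor BNIP3 at 4.53, 1.17 and 1.25, and the endoplasmic reticulum oxidase ERO1A at 45.0, 19.6 and 21.7. ERO1A lost the call with the GC correction, with rescaling to the same sum and with a pseudocount of 5, and BNIP3 with a pseudocount of 5. Phosphoglucomutase PGM1 was lower, at 3.71, 13.7 and 16.3 FPKM. In RT112 quisinostat CA9 was at 0.244 FPKM and LDHA at 161, and NDRG1 alone of the 5 stayed past 2-fold above both untreated lines.

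The 250 bases upstream of the transcription start are shown for the 4 of these genes with an upstream sequence used here, because hypoxia-inducible factor is known to bind a core of ACGTG. The sequences are from RefSeq on GRCh38.p14, read 5′ to 3′ on the strand of the gene, with ACGTG on either strand in capitals (overlapping matches are merged, so that CACGTG is a match on both strands). They are CA9 (chr9:35673678-35673927, plus strand), BNIP3 (chr10:131981924-131982173, minus strand), LDHA (chr11:18394313-18394562, plus strand) and ERO1A (chr14:52695559-52695808, minus strand).
CA9: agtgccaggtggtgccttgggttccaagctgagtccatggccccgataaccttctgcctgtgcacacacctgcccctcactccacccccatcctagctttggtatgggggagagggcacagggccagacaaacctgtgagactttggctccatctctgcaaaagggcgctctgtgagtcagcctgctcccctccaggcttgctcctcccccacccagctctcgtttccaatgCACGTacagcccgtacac
BNIP3: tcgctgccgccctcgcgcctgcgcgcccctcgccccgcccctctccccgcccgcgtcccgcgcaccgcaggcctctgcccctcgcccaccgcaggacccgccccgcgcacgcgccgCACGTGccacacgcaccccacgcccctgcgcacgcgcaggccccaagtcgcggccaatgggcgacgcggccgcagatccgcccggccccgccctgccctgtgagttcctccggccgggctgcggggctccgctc
LDHA: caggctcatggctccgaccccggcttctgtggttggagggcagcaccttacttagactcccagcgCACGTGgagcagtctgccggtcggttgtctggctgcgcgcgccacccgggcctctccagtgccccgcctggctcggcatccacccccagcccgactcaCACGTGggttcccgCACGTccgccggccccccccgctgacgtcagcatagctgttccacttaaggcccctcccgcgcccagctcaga
ERO1A: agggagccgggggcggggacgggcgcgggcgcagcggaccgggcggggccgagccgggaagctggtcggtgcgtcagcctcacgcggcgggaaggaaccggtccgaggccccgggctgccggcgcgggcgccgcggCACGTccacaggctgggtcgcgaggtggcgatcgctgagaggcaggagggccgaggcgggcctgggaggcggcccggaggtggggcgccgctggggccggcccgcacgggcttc
All 4 held the core, CA9 at position -18 from the start and on the opposite strand. It was also in 9 of the 28 upstream sequences of list members called neither way, and in 18.7% of 27305 upstream sequences of the same length. A match of these letters is a description and not a bound site.

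Several genes of the NRF2 pathway and of redox control were lower in RT112. Of 38 compared, none was higher and 6 were lower (against 4.21% of all loci), with a median of -0.67. The median was -0.24 against RT4 alone and -1.01 against SW780 alone. At any size 20 of the 38 were below both lines, where 3093 of all 9045 loci were. NQO1, a quinone reductase and a standard NRF2 target, was at 80.2 FPKM in RT112, 194 in RT4 and 306 in SW780, a 3.12-fold gap to their mean. Glutathione reductase GSR was at 28.7, 71.7 and 84.2 FPKM, GCLC, the catalytic subunit for glutathione synthesis, at 9.34, 26.9 and 28.3, and the aldo-keto reductase AKR1C3 at 71.9, 148 and 424. FTH1, which stores iron, was at 676, 1354 and 2292 FPKM, and HMOX1 is given above. The call of FTH1 was lost with the GC correction, and those of FTH1 and AKR1C3 were lost with median centring, with rescaling to the same sum, with quantile normalization and with a pseudocount of 5. AKR1C3 has close paralogs, including AKR1C2, and reads may be shared among them. All 6 stayed past 2-fold below both untreated lines in RT112 quisinostat. The antioxidant response core TGACNNNGC was searched on both strands of the 250 bases upstream. It was in none of the 3 sequences of these genes used here (NQO1, GCLC and AKR1C3). It was in 6 of the 22 sequences of list members called neither way and in 11.03% of all 27305. Sites further from the start were not searched, so these genes cannot be said to lack the core.

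Genes of xenobiotic, steroid and retinoid metabolism were called in both directions. Of 35 compared, 5 were lower (against 4.21% of all loci) and 2 were higher (against 3.24%), with a median of -0.81. The aldehyde dehydrogenase ALDH3A1 was at 4.51 FPKM in RT112, 25.7 in RT4 and 249.2 in SW780, and the glutathione transferase GSTM3 at 1.28, 12.6 and 68.7. The folate enzyme ALDH1L1 was at 6.41, 34.6 and 18.9 FPKM, the fatty acid hydroxylase CYP4F11 at 0.387, 3.34 and 5.84, and the arylamine acetyltransferase NAT1 at 1.37, 5.37 and 4.02, a call lost under quantile normalization. Higher were CRABP2, which carries retinoic acid (17.2, 4.29 and 6.30 FPKM), and CYP3A5, a drug-metabolising P450 (4.44, 0.104 and 1.07 FPKM). NAT1, CYP4F11, CRABP2 and CYP3A5 lost the call with a pseudocount of 5. All 5 lower genes stayed lower with quisinostat, and CRABP2 stayed higher.

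Interferon-stimulated genes were called in both directions. Of 43 interferon-stimulated genes, 4 were lower and 2 higher, where 4.21% of all loci were lower and 3.24% higher. Their median was -0.64, but -0.23 against RT4 alone and -0.48 against SW780 alone. UBE2L6, which conjugates ISG15, was at 3.36 FPKM in RT112, 21.3 in RT4 and 47.6 in SW780. The antiviral GTPase MX1 was at 0.0323, 2.42 and 3.85 FPKM, RTP4 at 0.579, 3.96 and 5.66, and TRIM22, whose call was lost under quantile normalization, at 0.305, 1.92 and 10.7. MX1, RTP4 and TRIM22 lost the call with a pseudocount of 5. Against these, OAS1, which senses double-stranded RNA, was higher at 64.8, 21.3 and 11.5 FPKM, and IFIT2, at a locus shared with AL353751.1, at 20.1, 1.24 and 5.34. Of 17 antigen presentation genes, 1 was lower and none higher, with a median of -0.45. It was the immunoproteasome subunit PSMB10, at 1.49, 9.87 and 7.78 FPKM, a call lost with a pseudocount of 5.

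Of 15 chemokine, cytokine and NF-kappaB genes, 2 were higher (against 3.24% of all loci) and 2 lower (against 4.21%), with a median of -0.82. TNFSF10, the death ligand TRAIL, was at 34.6 FPKM in RT112, 2.34 in RT4 and 11.4 in SW780, and LCN2, the iron-siderophore binder lipocalin 2, at 18.5, 3.91 and 0.963. The interleukin 1 receptor antagonist IL1RN was at 5.53, 43.1 and 18.4 FPKM and IL1A at 1.88, 5.98 and 6.91. LCN2 was also the higher one of 8 mucin and secreted glycoprotein genes, and CLU the lower one, with a median of -0.34 whose direction turned to 1.26 with the mean of log2 values and to 0.38 against RT4 alone.

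Calcium-binding S100 genes were among the higher loci. Of 14 S100 and metallothionein genes, 3 were higher (against 3.24% of all loci) and none lower. Their median was 0.42, and 10 were above both other lines at any size, where 2656 of all 9045 loci were. S100A9, the partner of S100A8, was at 294 FPKM in RT112, 41.5 in RT4 and 11.6 in SW780, 11.1 times the mean of the others. S100A8 and S100A4, given above, were the other two, and all 3 lasted with quisinostat.

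Lipid genes were called in both directions. Of 37 cholesterol and fatty acid synthesis genes, 1 was higher and 3 were lower, with a median of -0.013. The shares over all loci were 3.24% higher and 4.21% lower. SCD, the stearoyl-CoA desaturase, was at 665 FPKM in RT112, 272 in RT4 and 227 in SW780. Lower beside PLIN2 were the acyl-CoA synthetase ACSL1 (5.30, 28.9 and 15.3 FPKM) and the phosphatase LPIN1 (0.817, 2.71 and 4.58 FPKM). LPIN1 lost the call with median centring, with rescaling to the same sum, with quantile normalization and with a pseudocount of 5.

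Developmental signalling genes were called in both directions. Of 35 WNT, NOTCH and TGF-beta genes, the NOTCH target HEY1 (8.27, 0.651 and 0.190 FPKM) and the receptor FZD6 (42.7, 13.9 and 18.8 FPKM) were higher, WNT5A (0.0166, 2.97 and 3.32 FPKM) and the inhibitor of differentiation ID3 (8.45, 32.1 and 20.01 FPKM) were lower, and the median was -0.10. Over all loci 3.24% were higher and 4.21% lower. Of 8 HOX genes, HOXA10 was lower, listed at 0 against 2.56 and 6.18 FPKM, with a median of -0.27. None of 7 cancer-testis antigen genes was called. Their median of -2.26 was set by SW780, since it was 0.00 against RT4 alone and -2.76 against SW780 alone.

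None of 10 histone deacetylase genes, the targets of quisinostat and their relatives, was called in either direction, with a median of -0.11. In a list of this size this is near the shares over all loci (3.24% higher and 4.21% lower). HDAC1 was at 72.7, 64.4 and 79.2 FPKM and HDAC2 at 14.04, 7.48 and 9.51 FPKM in RT112, RT4 and SW780. Of 19 reference genes of general use, POLR2A, the large subunit of RNA polymerase II, was lower, and the median was -0.26. POLR2A stood at 14.4, 32.7 and 31.7 FPKM, a call that the GC correction removed. A single lower gene among 19 is near the share over all loci.

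**Figure D3:**
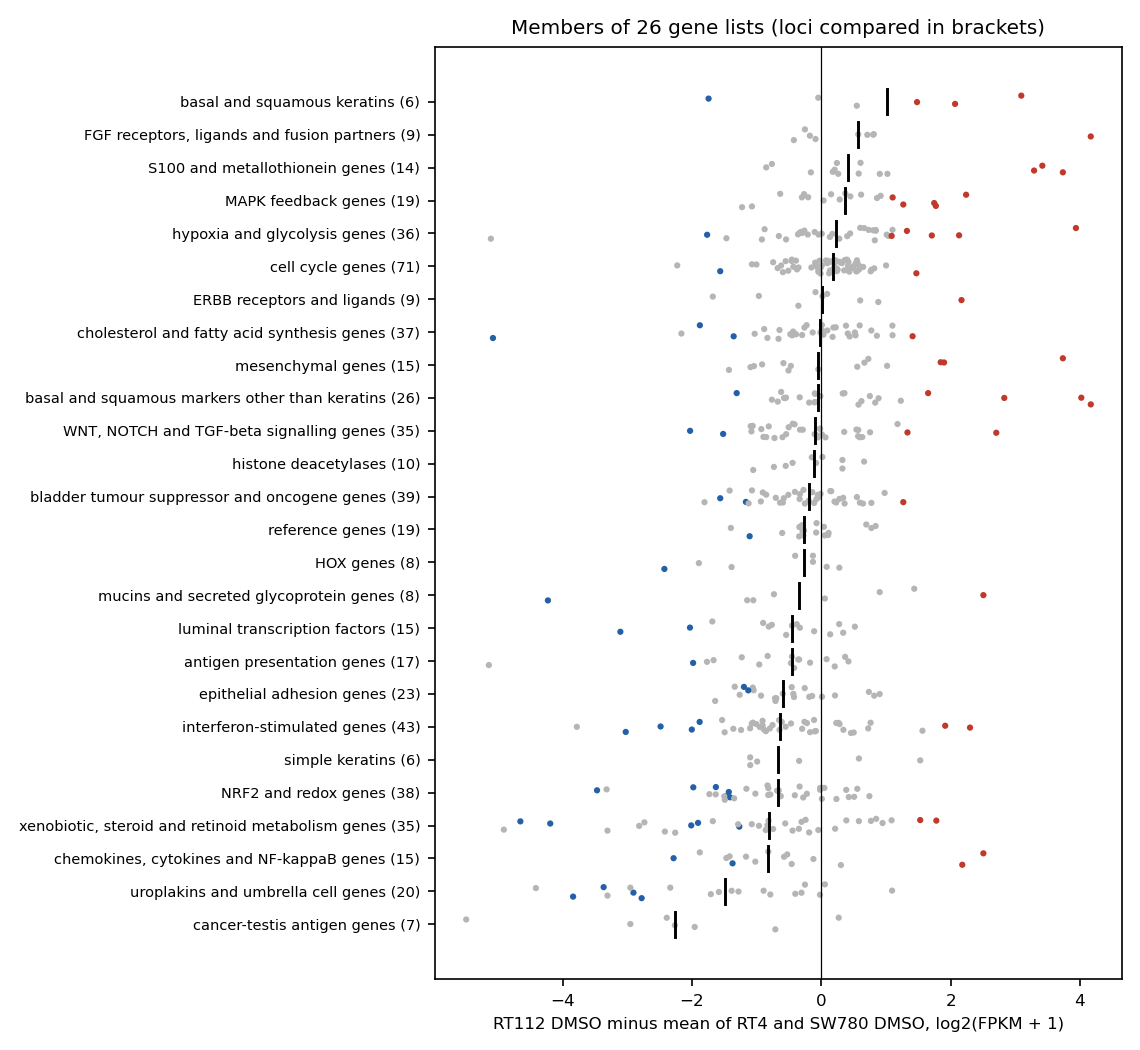
Differences between RT112 DMSO and the mean of RT4 and SW780 DMSO, log2(FPKM + 1), for the members of 26 gene lists with at least 5 loci compared, 1 point per locus (red higher, blue lower, grey neither) and a black bar at the list median. Basal and squamous keratins have the highest median (1.02, but -0.046 with a minimum mean of 5 FPKM). Apart from the cancer-testis genes, uroplakin and umbrella cell genes have the lowest (-1.48).

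Whether these differences last was read from RT112 quisinostat set against the same RT4 and SW780 DMSO libraries, so both comparisons share 2 of their 3 libraries. Of the 293 higher loci, 165 (56.3%) were still past 2-fold above both lines, where 4.77% of all loci were higher in this comparison, and they were 38.3% of the loci higher there. Of the 381 lower loci, 161 (42.3%) were still past 2-fold below both, where 2.87% of all loci were lower, and they were 61.9% of the loci lower there. On the same side of both lines, at any size, were 272 of the higher and 311 of the lower loci.

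FGFBP1 (62.7 FPKM in DMSO and 62.7 with quisinostat), LUM (135 and 133), SLPI (222 and 200), S100A9 (294 and 289) and RFTN1 (9.39 and 9.21) were at nearly the same level in both RT112 libraries. CASP14 (66.8 and 14.4), MMP1 (54.3 and 19.1) and S100A4 (66.1 and 15.2) were less abundant with the drug but lasted. CA9 was the 1 gene of the 15 highest that did not last. Of the higher loci, 54 were at least 2-fold less abundant in RT112 quisinostat than in RT112 DMSO and 11 at least 2-fold more abundant.

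On the lower side LXN (0.375 and 0.0345 FPKM), PLIN2 (0.0207 and 0.0227), PLBD1 (0.811 and 0.549) and RAB34 (0.0358 and 0.0695) stayed near 0 with the drug. LCP1 (2.97 and 27.7 FPKM) and CLU (3.05 and 18.8 FPKM) were more abundant with it and still below both untreated lines. Of the lower loci, 123 were at least 2-fold more abundant in RT112 quisinostat than in RT112 DMSO and 3 (APOBEC3G, CST1 and DENND2D) at least 2-fold less abundant. RT112 DMSO was listed at 0 for 65 of them, and 32 of these were above 1 FPKM in RT112 quisinostat, while 15 were at 0 in both. Past the opposite limit, above both untreated lines, were 5 of the lower loci (FLNA, FRMD8, KRT17, PCED1A and PDLIM7), and KRT17 went from 31.1 FPKM to 671.

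A comparison that shares no library with the untreated one sets RT112 quisinostat against RT4 and SW780 quisinostat. There 7.34% of all loci were higher and 4.36% lower. Of the 293 higher loci 108 (36.9%) were higher there as well, 16.3% of the loci higher with the drug, and of the 381 lower loci 140 (36.7%) were lower there as well, 35.5% of the loci lower with the drug. Higher in all of these comparisons were 92 loci and lower 100, among them CASP14, H19, LUM, SLPI, KRT13 and S100A9 on the higher side and LCP1, CLU, LXN, NQO1, GSTM3 and PLIN2 on the lower. The drug was at a different concentration in each line, so line and concentration cannot be told apart in this comparison.

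**Figure D4:**
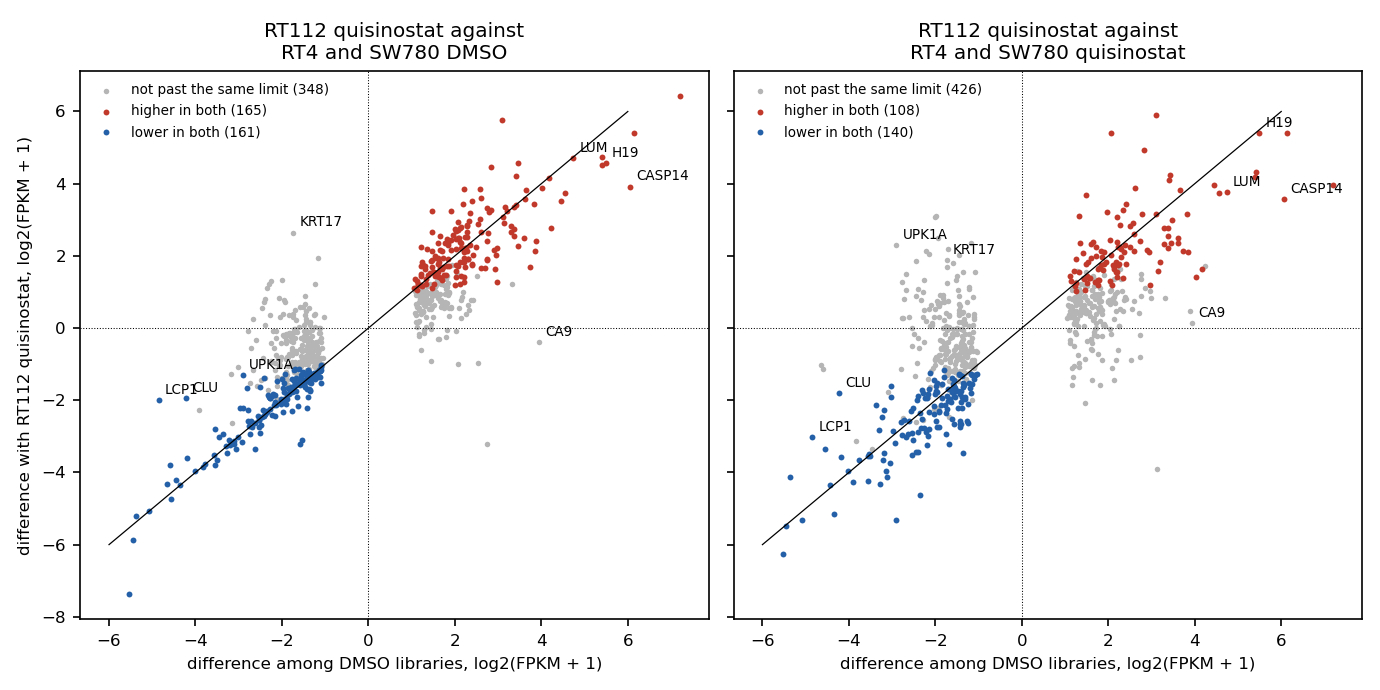
Loci called in the DMSO comparison, with their difference among the DMSO libraries (horizontal) against the difference of RT112 quisinostat from the DMSO libraries (left) or from the quisinostat libraries (right) of RT4 and SW780, all log2(FPKM + 1). Coloured points are past the same limit in both (165 and 161 on the left, 108 and 140 on the right), the diagonal marks equal differences, and CA9 falls to about 0 while KRT17 changes side.

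GC content moved with the difference. Over the 8408 loci with a GC value (93.0%), taken from the longest protein-coding transcript in GENCODE 29, the Spearman correlation of the difference with GC content was -0.28. It was -0.38 against RT4 alone and -0.04 against SW780 alone, and 0.41 among the 3 quisinostat libraries. Loci are not independent replicates, and each correlation rests on libraries prepared once. Higher loci had a median GC content of 45.5% and lower loci of 52.4%, against 48.3% over all loci compared. Lower loci that lasted had a median of 48.9% and those that did not 54.7%.

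After a smooth curve of the difference on GC content was subtracted, 241 of 8408 loci were higher (2.87%) and 320 were lower (3.81%). Of the called loci with a GC value, 208 of 241 higher and 283 of 342 lower were called again. Among the genes named here, those that lost the call were ERCC2, ERO1A, FLNA, FTH1, KRT17, MARVELD3, POLR2A and RRAS2 (ACTN4, PFN1 and RPL9, described later, did so too). With a pseudocount of 5 in place of 1, which weighs low levels less, 32 of 111 called genes named here lost the call. Those not given so far were ACSL1, APOBEC3G, CDKN2D, CLCA2, ERCC2, HOXA10, ID3, IL1A, KRT4, PDLIM7, POLD1, POLR2A, RRAS2, SPINK1, TBX3 and WNT5A. Both corrected and lasting were 128 higher and 139 lower loci.

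Position in the genome also moved with the difference. Chromosome 21 had the highest median difference (0.73 over 93 loci, 0.69 after the GC correction), followed by chromosome 10 (0.37 over 304 loci, 0.33 corrected). Chromosome 17 had the highest share of lower loci apart from chromosome 8, with 47 of 538 (8.74%) and a median of -0.42 (-0.33 corrected), and chromosome 19 had a median of -0.50 (-0.25 corrected). On chromosome 19 the median was -0.71 against RT4 alone, 0.065 against SW780 alone and 0.40 among the 3 quisinostat libraries. Chromosome 8 held both, with 24 higher and 30 lower among 314 loci.

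In windows of 20 neighbouring loci, chosen here for their values and so a description only, lower medians against both lines were found on the short arms of chromosomes 17 and 8 and on chromosome 19. The window from EMC6 to KIF1C (chr17:3668815-5028401) had a median of -1.28, with 18 of 20 loci below both lines and 8 called, among them PFN1, PELP1 and MINK1. From TXNDC17 to SAT2 (chr17:6640758-7627876) the median was -1.005, and POLR2A was among its 8 called loci. On chromosome 8 from SOX7 to FAM160B2 the median was -1.12, with 10 called loci that include NAT1, MTUS1 and ASAH1, and it was -1.32 among the 3 quisinostat libraries. On chromosome 19 the window from ZNF765 to TNNT1 (chr19:53389793-55149354), which holds AC011487.2, had a median of -1.23, and -0.28 with quisinostat. The window from AKT2 to RPS19 on the same chromosome (chr19:40230317-41872926) had a median of -0.99, which turned to 0.15 among the 3 quisinostat libraries.

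Higher medians were found on chromosome 4 from BLOC1S4 to NCAPG (chr4:6716055-17844862), with a median of 0.89, 18 of 20 loci above both lines and 4 called (AFAP1, ZNF518B, HS3ST1 and FGFBP1). On chromosome 3 from SKIL to ATP11B (chr3:170357678-182921635) the median was 0.81 and 5 loci were called (TNIK, FNDC3B, TNFSF10, TBL1XR1 and LINC02015). On the long arm of chromosome 8 the window from TBC1D31 to FAM49B, with MYC, had a median of 0.79, and the window from ATP6V1C1 to AC091563.1, with FZD6, had a median of 0.89 with all 20 loci above both lines. Among the 3 quisinostat libraries these 4 windows had medians of 0.83, 0.31, 0.50 and 0.33 in the order given. A further window of chromosome 8, from PEX2 to OSGIN2, had a median of 0.79, with HEY1 and ZNF704 called higher and FABP5 lower, and of 0.12 among the quisinostat libraries. DNA copy number was not measured in these samples.

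**Figure D5:**
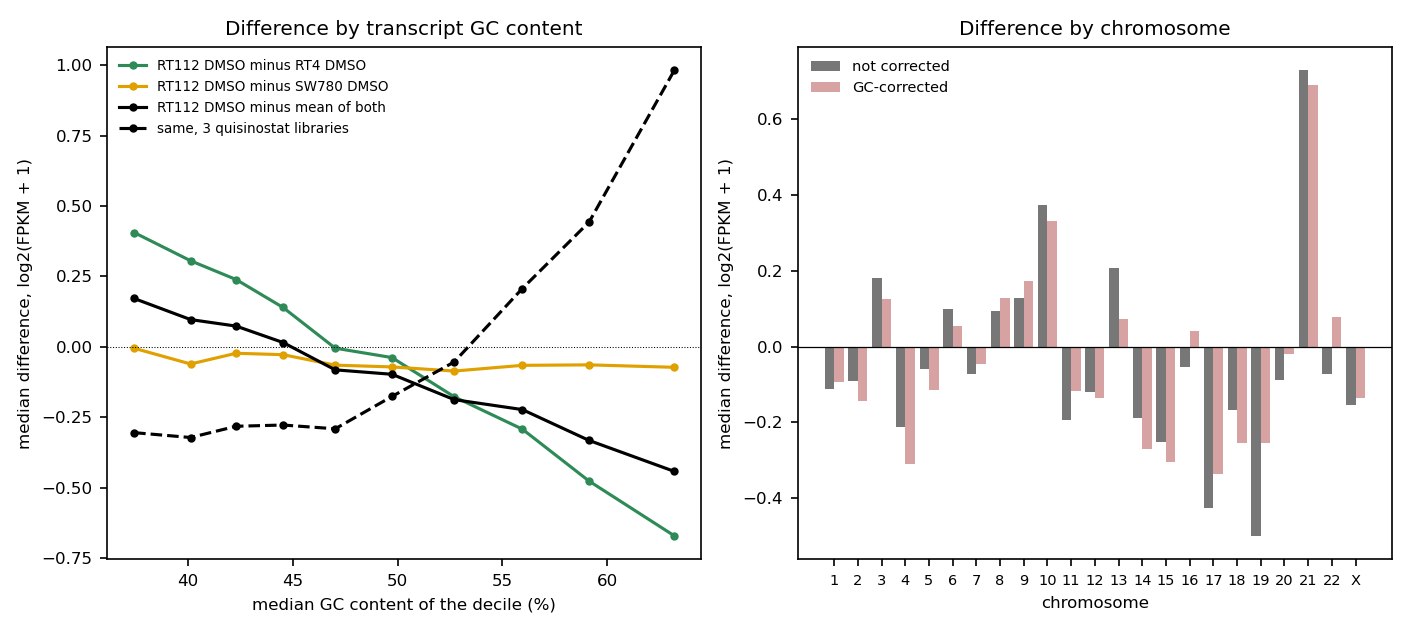
Left, median difference in log2(FPKM + 1) for 10 groups of loci of equal size by transcript GC content (%), for RT112 DMSO minus RT4, SW780 or their mean, and for the mean among the 3 quisinostat libraries (dashed). Right, median difference by chromosome without and with the GC correction. The left lines fall from 0.41 to -0.67 against RT4, stay between -0.09 and 0.00 against SW780 and climb from -0.30 to 0.98 with quisinostat, and chromosome 21 stands highest on the right at 0.73.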

How the data were processed

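RNA of RT4, RT112 and SW780 cells was measured by RNA-seq, with 1 library per line and treatment. According to the submitters' processing notes, CASAVA 1.8.2, Trimmomatic 0.36, HISAT2 2.2.1, SAMtools 1.15.1 and StringTie 2.2.1 were used on GRCh38, and the authors took FPKM from Ballgown. The authors deposited FPKM, scaled by transcript length and mapped fragments, without read counts, so depth and counting error are unknown. All 6 columns matched a label. One label of SW780 quisinostat misspells the line, so the title was used.

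From the deposited FPKM, 1 value per locus was used, with a pseudocount of 1, a minimum mean of 1 FPKM over the 3 DMSO libraries and a limit of 2-fold against both other lines. A locus with more than 1 gene name (374 of those compared) counts once. GC content and positions are from GENCODE 29, older names were matched through RefSeq, and the correction subtracted a lowess curve (span 0.3, statsmodels 0.14.6). pandas 2.3.3 and NumPy 2.4.6 ran in Python 3.11.15. The code for the calls was run on simulated, nearly equal libraries with planted changes far past the limit. That run does not cover loci near the limit or listed zeros.

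Named were the 15 highest and 15 lowest named loci by the weaker difference, FGFR3, TACC3, BAIAP2L1, up to 5 called members a direction of 27 gene lists, and cell type markers. Loci at the limit, IGF2, POLD1, FTH1, HDAC1, HDAC2, members of windows and of the closing section were named after their values were seen. Some loci and 1 list are not reported here. The members and lists were chosen with earlier results of these data known.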

Additional observations from a re-analysis of the deposited data

Results flagged for a closer look

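Some loci lay on opposite sides before and with the drug. Past 2-fold above both other lines among the DMSO libraries and past 2-fold below both among the quisinostat libraries were 4 loci (C17orf58, PRPF18 and 2 without a gene name), and 20 loci were lower without the drug and higher with it. The differences between these comparisons were not tested, since there is 1 library for each line and treatment.

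UPK1A, a uroplakin gene, had a difference of -2.90 among the DMSO libraries and of 2.30 among the quisinostat libraries, where RT112 stood at 5.89 FPKM, RT4 at 0.178 and SW780 at 0.613. Without the drug the levels were 1.27, 12.8 and 19.2 FPKM in the same order. KRT17 went from -1.74 to 1.88, with 671 FPKM in RT112, 92.9 in RT4 and 271 in SW780 under quisinostat against 31.1, 82.5 and 130 without it. PSMB10 went from -1.98 to 3.09, with RT4 and SW780 both listed at 0 under quisinostat. POLD1 went from -2.78, with RT112 DMSO listed at 0, to 1.27.

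The named loci of the 20 had a GC content of 54.7% or more, above the median of 48.3% over all loci. After the GC correction some of them, KRT17 included, lost the lower call among the DMSO libraries. Others, among them UPK1A, PSMB10 and POLD1, kept it. The part of GC content in these changes was not tested.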

How the results depend on the processing

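Most values held. Over 27 list medians and 12 alternatives each, 298 of 324 values stayed within 0.5 log2 units of the value in the report and 26 moved further. The sign was the other one in 24 values of 8 lists, 7 of them among those that moved further. Of 111 called genes named in the text, none changed sign under these alternatives. A call already requires the same direction against both lines. Other pseudocounts, filters on low values, single-name loci, the mean of log2 values and a single other line therefore keep its sign by construction. Only median centring, rescaling to the same sum, quantile normalization and the GC correction left the sign free to change.

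The number of higher loci was 134 with a pseudocount of 5, 145 with a minimum mean of 5 FPKM, 1011 against RT4 alone, 658 against SW780 alone, 759 at 1.5-fold and 79 at 4-fold. The number of lower loci was 628 with a pseudocount of 0.1, 79 with a pseudocount of 5, 180 with a minimum of 5 FPKM, 1269 and 893 against RT4 and SW780 alone, 888 at 1.5-fold and 56 at 4-fold. Lasting higher loci numbered 108 with RT4 and SW780 quisinostat as the other libraries and 74 with a pseudocount of 5. Lasting lower loci numbered 260 with a pseudocount of 0.1 and 43 with 5. A stricter or looser limit, a higher minimum and a single other line change such counts by construction. The cause of the other shifts was not tested.

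The median of basal and squamous keratins changed sign to -0.046 with a minimum of 5 FPKM, which leaves fewer loci. It was 0.39 with a pseudocount of 5. With the mean of log2 values the medians were -0.96 for umbrella cell genes, 0.85 for mesenchymal genes, 1.26 for mucins and -1.55 for cancer-testis genes. Against RT4 alone they were 1.58 for mesenchymal genes, 0.53 for ERBB genes, 0.38 for mucins, 1.12 for S100 and metallothionein genes, 0.00 for cancer-testis genes and 3.06 for other cell type markers. Against SW780 alone they were -0.23 for umbrella cell genes, -0.033 for epithelial adhesion, -0.31 for cytokines, -0.15 for xenobiotic metabolism and 1.06 for other cell type markers. Mesenchymal genes gave 0.61 with a minimum of 5 FPKM and with single-name loci. Cancer-testis genes gave -4.90 and -0.82 with pseudocounts of 0.1 and 5, -0.33 without a filter and -0.71 with a minimum of 5 FPKM. Other cell type markers gave 0.80 with a pseudocount of 0.1, 0.17 without a filter and 4.74 with a minimum of 5 FPKM.

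Of these genes, 32 lost the call with a pseudocount of 5, 11 with the GC correction, 8 with quantile normalization, 5 with rescaling to the same sum and 3 with median centring. No paired analysis was possible because the comparison of 3 DMSO libraries comes from no test and the labels number no replicates. A fit of line and treatment over all 6 libraries was not made here. Depth is unknown, so low levels cannot be told from absence.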

Other observations

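Among the most abundant loci called, singled out here after their values were seen, MT-ND3, a mitochondrially encoded subunit of NADH dehydrogenase, was at 3699 FPKM in RT112 DMSO, 1234 in RT4 DMSO and 1193 in SW780 DMSO, 3.05 times the mean of the others. MT-CO1, from the same genome, was at 7992, 8116 and 7294 FPKM and was called neither way. The ribosomal protein gene RPL9 was at 280.3, 116 and 86.0 FPKM, and it neither lasted with quisinostat nor kept the call with the GC correction. FAM3C, a secreted protein, was at 157, 16.5 and 28.6 FPKM, the lysosomal protease LGMN at 144, 35.04 and 35.5, and the ornithine aminotransferase OAT at 129.6, 2.10 and 56.8, and these 3 lasted with quisinostat.

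Abundant loci that were lower included actin-associated genes beside LCP1 and CNN3. The actin monomer binder PFN1 was at 112 FPKM in RT112, 305 in RT4 and 278 in SW780, and the crosslinker ACTN4 at 52.8, 146 and 133, and neither kept the call with the GC correction. FABP5, a fatty acid carrier, was at 17.0, 165.6 and 131 FPKM, PADI3, an arginine deiminase, at 10.8, 29.7 and 109, and the protease inhibitor CST1 at 4.88, 519.6 and 21.7. These 3 kept the call with the GC correction, and FABP5 and CST1 lasted with quisinostat.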
